A study of Mus musculus with 10 samples.

Results

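Ribosome footprints of 6 intermediate progenitor genes were followed through neurogenesis in the mouse neocortex. The 6 genes were chosen by name as genes known to be expressed in intermediate progenitors or at the start of neuronal differentiation and are Eomes (ENSMUSG00000032446), Insm1 (ENSMUSG00000068154), Gadd45g (ENSMUSG00000021453), Btg2 (ENSMUSG00000020423), Mfng (ENSMUSG00000018169) and Sstr2 (ENSMUSG00000047904). All 6 were found among the 22373 genes of the table, and all 6 were among the 13484 genes that reached 32 footprints in some stage, both libraries together. Ribo-seq sequences the mRNA fragments that ribosomes protect from nuclease, and the table counts these footprints per gene in 10 libraries, 2 for each of 4 embryonic stages (E12.5, E14, E15.5 and E17) and for P0. Every stage came from untreated wild-type CD-1 mice of timed pregnancies, with neocortex dissected from embryos or, at P0, from pups on the day of birth. All libraries shared digestion with RNase T1 and RNase A and were made without cycloheximide. Each library was a pool of brains of both sexes. The p-values rest on the spread between pools, estimated per gene over all stages together, although replicates differed more at P0.

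Intermediate progenitors, also called basal progenitors, are born from the radial glia that line the ventricle, lose contact with the ventricular surface and divide in the subventricular zone, usually to give a pair of neurons. In the neocortex they produce glutamatergic neurons. Their passage from radial glia runs through a cascade in which proneural factors such as Neurog2 turn on genes for Notch ligands, for cell cycle exit and for further transcription factors. Eomes, also named Tbr2, is the T-box transcription factor that defines these cells, and Insm1 is a zinc finger factor that promotes their formation. Gadd45g and Btg2 are growth-restraining proteins induced as progenitors commit to neurogenesis, Mfng is a glycosyltransferase that modifies Notch receptors, and Sstr2 is a receptor for the peptide somatostatin.

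The libraries held between 7544404 and 36129988 footprint counts, and the shallowest was replicate 1 of P0. Levels are given as CPM, footprint counts scaled to a common library size with TMM factors. Over 4559 well-covered genes, the SD of the log2 ratio between replicates was 0.22 or less before birth (the lowest 0.13) and 0.54 at P0. Emx2, a transcription factor of the dorsal telencephalon, was present throughout, with stage means between 6.20 and 41.8 CPM. Histone genes held between 32.7% and 38.5% of counts in the 4 libraries of E12.5 and E14, and between 6.32% and 18.7% in the 6 later libraries.

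Promoter sequences were available for 4 of the 6 genes, Eomes, Gadd45g, Btg2 and Sstr2, and all 4 are shown. Whether any word in them bears on the changes of these genes was not tested. They are RefSeq sequences of build GRCm38.p6, the 250 bases before the transcription start given for each gene. For Eomes the stretch ends at 118478188, just inside the RefSeq gene, which starts at 118478186. Its positions are therefore counted from a slightly later start. Capitals mark the words found, and positions are counted back from the start, with -1 the base before it.
Eomes promoter (chr9:118477939-118478188, plus strand): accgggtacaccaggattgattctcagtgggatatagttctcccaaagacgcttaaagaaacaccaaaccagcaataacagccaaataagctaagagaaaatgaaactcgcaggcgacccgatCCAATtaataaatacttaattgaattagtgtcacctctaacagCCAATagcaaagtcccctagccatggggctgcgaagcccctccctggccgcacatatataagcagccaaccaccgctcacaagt
Gadd45g promoter (chr13:51846425-51846674, plus strand): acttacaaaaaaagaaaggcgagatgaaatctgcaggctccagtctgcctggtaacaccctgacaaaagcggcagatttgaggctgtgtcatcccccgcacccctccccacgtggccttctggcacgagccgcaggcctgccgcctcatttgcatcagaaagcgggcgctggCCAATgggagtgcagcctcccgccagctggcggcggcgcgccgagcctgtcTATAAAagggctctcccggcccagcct
Btg2 promoter (chr1:134079156-134079405, minus strand): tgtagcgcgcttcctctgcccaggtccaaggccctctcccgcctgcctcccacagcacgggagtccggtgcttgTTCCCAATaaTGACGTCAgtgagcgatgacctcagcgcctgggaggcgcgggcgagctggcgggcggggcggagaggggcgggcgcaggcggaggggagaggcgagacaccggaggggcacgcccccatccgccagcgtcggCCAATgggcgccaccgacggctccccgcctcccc
Sstr2 promoter (chr11:113619077-113619326, plus strand): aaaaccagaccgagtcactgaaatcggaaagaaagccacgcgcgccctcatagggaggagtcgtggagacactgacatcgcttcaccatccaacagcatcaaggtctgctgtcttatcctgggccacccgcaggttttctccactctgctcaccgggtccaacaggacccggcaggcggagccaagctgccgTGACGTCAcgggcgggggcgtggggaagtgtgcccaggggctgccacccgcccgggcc

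The words searched for on both strands were CAGATG and CATATG (E-boxes), TGGGAA (the core bound by RBPJ, the DNA-binding factor of the Notch pathway), GGTGTGA (the T-box core), TGACGTCA (the cAMP response element), CCAAT and TATAAA. The last 3 of these were added after the sequences had been read. Btg2 held TGACGTCA from -166 and CCAAT from -173 and from -34, and its TGGGAA, read on the other strand as TTCCCA from -176, overlapped the upstream CCAAT. Sstr2 held TGACGTCA from -58. Eomes held CCAAT from -127 and from -84, while Gadd45g held CCAAT from -78 and TATAAA from -27. In addition, Gadd45g had TGGGAA at 36 bases after the start, outside the printed stretch. In windows of 300 bases, from 250 before to 50 after the start, TGACGTCA occurred in 1.79% of 32851 mouse promoters, CCAAT in 37.4%, TATAAA in 13.6% and TGGGAA in 25.6%. CAGATG (17.2% of promoters), CATATG (3.91%) and GGTGTGA (3.98%) were in none of these 4 windows. These matches describe letters and are not evidence of binding.

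Of the 2 transcription factors, Eomes was highest at E14 and Insm1 at E14 and E15.5. Eomes stood at 56.3 and 64.2 CPM in the E12.5 libraries, 77.5 and 65.5 in those of E14, 49.4 and 44.7 in those of E15.5, 26.6 and 23.5 in those of E17 and 7.61 and 4.73 in those of P0. Its libraries did not overlap between stages that were neighbours in level. Insm1 stood at 17.3 and 23.6 CPM in the pair of E12.5 libraries, 35.5 and 27.9 in the E14 pair, 33.9 and 30.0 in the E15.5 pair, 22.8 and 20.5 in the E17 pair and 12.7 and 5.99 in the P0 pair. Its E14 and E15.5 libraries overlapped at the top, its E12.5 and E17 libraries overlapped in the middle, and P0 lay below the rest. The P0 replicates of Insm1 differed by 1.09 on the log2 scale and those of Eomes by 0.69, against 0.45 or less between replicates of either gene at earlier stages. A footprint count reflects both the amount of an mRNA and its loading with ribosomes, and in whole tissue a lower count from fewer cells of a type cannot be told apart from less RNA or less translation per cell.

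Gadd45g and Btg2 were high at E12.5 and E14 and much lower from E15.5 on. Gadd45g, a member of the growth arrest and DNA damage family, stood at 64.3 and 77.6 CPM in the pair of E12.5 libraries, 87.6 and 87.7 in the E14 pair, 29.9 and 27.8 in the E15.5 pair, 20.7 and 15.47 in the E17 pair and 5.98 and 5.51 in the P0 pair. No neighbouring stages overlapped. Btg2, an antiproliferative gene that marks progenitors about to make neurons, stood at 25.5 and 30.7 CPM in the E12.5 pair, 27.8 and 30.1 in the E14 pair, 11.1 and 11.7 in the E15.5 pair, 7.46 and 6.76 in the E17 pair and 3.26 and 2.697 in the P0 pair. Only its first 2 stages overlapped. The P0 replicates of these 2 genes lay closer together than those of the other 4, at 0.12 for Gadd45g and 0.28 for Btg2 on the log2 scale.

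Mfng and Sstr2, which act at the cell surface or on surface receptors, were likewise highest at the first 2 stages. Mfng was the most thinly covered of the 6, with 72, 147, 125 and 153 counts in the libraries of E12.5 and E14 and 83, 49, 67 and 32 in those of E15.5 and E17. Its levels were 3.96 and 5.50 CPM in the E12.5 pair, 5.52 and 4.85 in the E14 pair, 2.50 and 2.07 in the E15.5 pair, and 2.13 and 1.201 in the E17 pair. At P0 it had 7 and 17 counts, or 0.761 CPM with an exact 95% Poisson interval of 0.306 to 1.57 and 0.406 CPM with an interval of 0.236 to 0.650, which cover counting error alone. E12.5 overlapped E14 and E15.5 overlapped E17. Sstr2 stood at 25.7 and 27.8 CPM in the pair of E12.5 libraries, 25.4 and 26.7 in the E14 pair, 12.504 and 11.7 in the E15.5 pair, 14.1 and 11.8 in the E17 pair and 6.20 and 4.53 in the P0 pair, with E12.5 overlapping E14 and E15.5 overlapping E17.

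**Figure D1:**
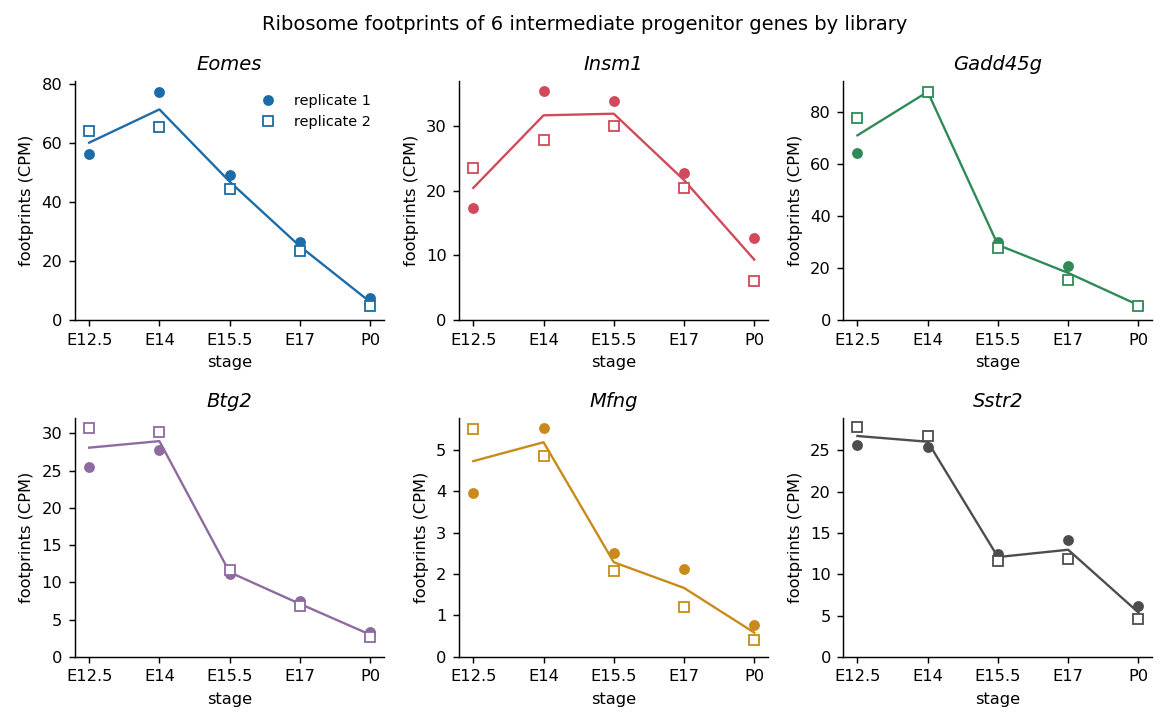
TMM-scaled CPM of each gene on a linear axis from 0, by stage, with a filled circle for replicate 1, an open square for replicate 2 and a line through the stage means. Insm1 stayed near its peak at E15.5, with libraries at 33.9 and 30.0 CPM, while Gadd45g, Btg2, Mfng and Sstr2 had dropped by then and all 6 were lowest at P0.

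Between E12.5 and E14, 0 of the 6 genes were called changed (limma-voom with Benjamini-Hochberg adjustment over all genes, adjusted p under 0.05 and a change to at least 125% or at most 80% of the earlier level). At this step 0.638% of the 13484 genes tested were called. The count was also 0 with edgeR, with DESeq2 and at an unadjusted p under 0.05. Insm1 had the largest difference, 0.62 on the log2 scale (SE 0.28, limma-voom adjusted p = 0.323), followed by Gadd45g with 0.31 (SE 0.14, limma-voom adjusted p = 0.350) and Eomes with 0.24 (SE 0.17, limma-voom adjusted p = 0.547). In these 3 genes both E14 libraries lay above both E12.5 libraries, a pattern that 27% of all genes tested showed. The differences of Btg2 (0.05), Mfng (0.12) and Sstr2 (-0.04) were near 0, with 95% intervals of -0.24 to 0.33, -0.44 to 0.67 and -0.35 to 0.27.

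Between E14 and E15.5, 5 of the 6 genes fell, against 19.6% of all genes tested called lower. Gadd45g fell by 1.60 on the log2 scale (SE 0.15, limma-voom adjusted p = 0.000177), to a level 3.04-fold lower. Btg2 fell by 1.35 (SE 0.13, adjusted p = 0.000199), Mfng by 1.16 (SE 0.26, adjusted p = 0.00963), Sstr2 by 1.11 (SE 0.14, adjusted p = 0.000655) and Eomes by 0.60 (SE 0.17, adjusted p = 0.0246). The fitted difference of Insm1 was 0.02 with a 95% interval of -0.59 to 0.64 (adjusted p = 0.961). In the 5 genes that fell, both E15.5 libraries lay below both E14 libraries, which held for 38.8% of all genes. The call of Eomes was lost with total counts only, when its difference was -0.30 (adjusted p = 0.166) and the median gene rose by 0.29, and it was lost without E14 replicate 1 or without either E15.5 library (adjusted p between 0.0804 and 0.147). The call of Mfng was lost without E14 replicate 1 (adjusted p = 0.0513) or E15.5 replicate 2 (0.0669), so that 3 calls were left without either of these libraries.

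At the same step, markers of the choroid plexus, the meninges and the endothelium fell, while some markers of the ganglionic eminence rose. All 6 choroid plexus genes on the list (Ttr, Folr1, Kcnj13, Clic6, Otx2 and Aqp1) fell, with a summed level of 1124 to 1130 CPM at E14 and 10.9 to 13.5 CPM at E15.5. Their summed level at E12.5 was 279 to 332 CPM. Between E12.5 and E14, 2 of these 6 were called higher, where 0.638% of all genes were called in either direction. All 6 genes of meningeal fibroblasts fell, from 62.9 to 71.3 CPM in sum to between 2.5 and 2.9 CPM, and all 5 endothelial genes fell. Of 8 ganglionic eminence genes, 4 rose and 0 fell, where 16.5% of all genes were called higher. The summed level of these 8 genes was 44.6 to 51.8 CPM at E14 and 114 to 115 CPM at E15.5. The part of these tissues in the change of the 6 genes was not tested.

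Between E15.5 and E17, 3 of the 6 genes fell, against 3.43% of all genes called lower. Eomes fell by 0.91 on the log2 scale (SE 0.17, limma-voom adjusted p = 0.0205), Gadd45g by 0.68 (SE 0.15, adjusted p = 0.0339) and Btg2 by 0.67 (SE 0.14, adjusted p = 0.0253). The differences of Insm1 (-0.56, SE 0.27, adjusted p = 0.240) and Mfng (-0.49, SE 0.30, adjusted p = 0.363) did not pass. Sstr2 gave 0.10 (SE 0.14, adjusted p = 0.739), with a 95% interval of -0.23 to 0.43. Both E17 libraries of Eomes, Insm1, Gadd45g and Btg2 lay below both E15.5 libraries, as in 33.8% of all genes. Each of the 3 calls needed both libraries of E15.5 and both of E17, as did nearly every call over all genes. With 1 of these libraries left out, the change of Eomes lay between -0.995 and -0.82. That of Gadd45g lay between -0.90 and -0.47, and that of Btg2 between -0.74 and -0.60. Leaving out either P0 library brought in Insm1 (adjusted p = 0.0408 and 0.0401), for 4 calls.

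Between E17 and P0, all 6 genes fell, against 11.1% of all genes called lower. Eomes fell by 2.18 on the log2 scale (SE 0.21, limma-voom adjusted p = 0.00106), to a level 4.53-fold lower, and Mfng by 1.83 (SE 0.46, adjusted p = 0.0264). Gadd45g fell by 1.66 (SE 0.18, adjusted p = 0.00166), Insm1 by 1.47 (SE 0.30, adjusted p = 0.0132), Sstr2 by 1.37 (SE 0.16, adjusted p = 0.00206) and Btg2 by 1.32 (SE 0.17, adjusted p = 0.00252). Both P0 libraries of every member lay below both E17 libraries, as in 28.9% of all genes. Without P0 replicate 2, Insm1 was at -0.73 (adjusted p = 0.0638) and Mfng at -0.99 (adjusted p = 0.340), neither called, and both also lost their call without E17 replicate 1 (adjusted p = 0.0945 and 0.135), as Insm1 did without E17 replicate 2 (0.0537). With only E17 and P0 in the fit, 0 of the 6 were called and all 6 had an unadjusted p under 0.05, and with sample quality weights 3 were called. Over all genes, limma-voom called 2767 in the reported fit, 698 with the weights and 0 with only these 2 stages, where 2962 of 12995 had an unadjusted p under 0.05. At this step 4 of the 5 endothelial genes fell, with a summed level of 12.6 to 14.3 CPM at E17 and 4.96 to 8.38 CPM at P0, and without P0 replicate 2 none of the 5 was called. Of the choroid plexus and meningeal genes, 0 of 6 and 0 of 6 were called. The part of endothelial cells in the change of the 6 genes was not tested.

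**Figure D2:**
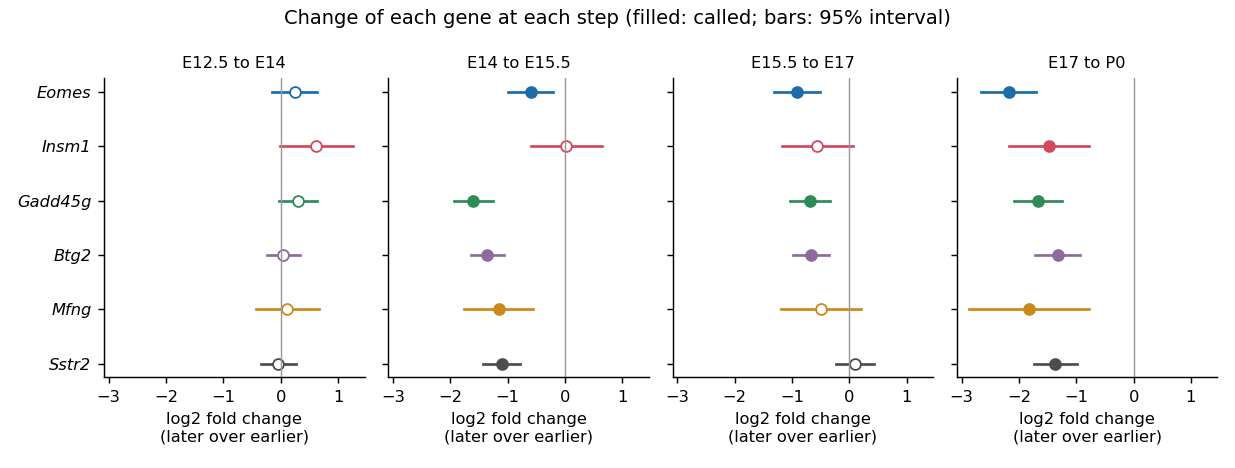
Fitted log2 fold change of each gene at the 4 steps between adjacent stages, later over earlier, with 95% intervals. Filled points passed the test and open points did not. The points of Gadd45g, Btg2, Mfng and Sstr2 sit below -1 between E14 and E15.5, where the interval of Insm1 spans -0.59 to 0.64, and all 6 points are filled and below -1 between E17 and P0.

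From E12.5 to P0 all 6 genes fell, against 32% of all genes called lower. P0 levels were 12.46-fold lower for Gadd45g (log2 -3.64, SE 0.18, limma-voom adjusted p = 1.28e-06), 10.9-fold for Eomes (-3.45, SE 0.20, adjusted p = 3.15e-06), 10.3-fold for Mfng (-3.36, SE 0.43, adjusted p = 0.000226) and 9.84-fold for Btg2 (-3.30, SE 0.16, adjusted p = 1.36e-06). The fall was 5.33-fold for Sstr2 (-2.42, SE 0.16, adjusted p = 5.68e-06) and 2.604-fold for Insm1 (-1.38, SE 0.31, adjusted p = 0.00445). Over edgeR, DESeq2 and the other alternatives that left out no single library, all 6 stayed called. The highest adjusted p-value of each gene over these runs lay between 0.00157 for Gadd45g and 0.0490 for Insm1, with 0.0019 for Eomes. The median of the 6 was -3.33, and that of all genes tested was -0.01. Under total counts only, the median gene moved up by 0.51 (log2) and the changes of the 6 genes relative to it lay between -3.63 and -1.38. Without P0 replicate 2, Insm1 was at -0.64 and lost its call (adjusted p = 0.0629), and Mfng fell by 2.52 (adjusted p = 0.0168). In the F test over the 5 stages all 6 genes passed, with limma adjusted p-values from 3.75e-06 for Gadd45g to 0.00219 for Insm1, as did 63.8% of all genes.

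Ratios between 2 genes counted in the same library do not depend on how libraries are scaled. Insm1 gave between 0.269 and 0.405 footprints per Gadd45g footprint in the 4 libraries of E12.5 and E14, and between 1.08 and 2.13 in the 6 later ones. Per Eomes footprint it gave 0.308 and 0.368 in the E12.5 pair, 0.458 and 0.425 in the E14 pair, 0.687 and 0.671 in the E15.5 pair, 0.858 and 0.871 in the E17 pair, and 1.67 and 1.27 in the P0 pair, with no overlap between any stages. Insm1 thus gained on both genes over the time course. The ratio of Eomes to Gadd45g was between 0.748 and 0.885 up to E14, between 1.28 and 1.65 at E15.5 and E17, and 1.27 and 0.857 at P0, so that these 2 genes were back near their starting ratio in P0 replicate 2. Transcript length enters each ratio, and with 2 libraries against 2 an exact two-sided permutation test cannot go below 0.333, so these ratios are given as values.

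Paralogues of the 6 genes did not all move in the same direction. Of 16 paralogues, 12 passed the filter and Tbx21, Btg4, Sstr3 and Sstr5 did not. From E12.5 to P0, 8 of the 12 fell and 3 rose (limma-voom, adjusted over all genes), with a median of -1.12. Over all genes tested, 32% were called lower and 30.1% higher. With total counts only, 6 fell and 4 rose. Without P0 replicate 2, 5 of the 11 paralogues still tested fell and 2 rose.

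The somatostatin receptors moved in opposite directions. Sstr1 averaged 1.43 CPM at E12.5 and 1.04 CPM at E14, then 2.88 CPM at E15.5, 7.57 CPM at E17 and 14.4 CPM at P0, a rise of 3.23 on the log2 scale from E12.5 to P0 (SE 0.26, limma-voom adjusted p = 1.73e-05). It rose at each of the 3 steps after E14, by 1.44, 1.38 and 0.88, steps at which 16.5%, 5.61% and 9.46% of all genes were called higher. There were 23.4 and 15.8 Sstr2 footprints per Sstr1 footprint in the E12.5 pair and 26.1 and 24.1 in the E14 pair. The ratio was 4.28 and 4.12 in the E15.5 pair, 2.08 and 1.41 in the E17 pair, and 0.380 and 0.366 in the P0 pair. Sstr4 also rose from E17 to P0, by 2.33 (SE 0.45, adjusted p = 0.0101), from a mean of 0.18 to 1.07 CPM, and did not pass the filter without P0 replicate 2.

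The fringe enzymes, which lengthen sugars on Notch receptors, diverged too. Rfng rose by 0.99 on the log2 scale between E14 and E15.5 (SE 0.20, limma-voom adjusted p = 0.00627) and by 1.40 from E12.5 to P0, at which Mfng fell by 3.36 and Lfng by 2.58 (SE 0.40, adjusted p = 0.000633). Without P0 replicate 2, Lfng fell by 1.35 (adjusted p = 0.0236). Lfng had its largest step between E14 and E15.5, a fall of 1.99. Per Rfng footprint there were 1.47 and 1.96 of Mfng in the E12.5 pair, 1.62 and 1.72 in the E14 pair, 0.390 and 0.355 in the E15.5 pair, 0.344 and 0.154 in the E17 pair, and 0.0833 and 0.0620 in the P0 pair. As for Sstr2 against Sstr1, the E14 and E15.5 libraries did not overlap and P0 was lowest.

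Tbr1, the T-box factor of early-born and deep-layer neurons that follows Eomes in the neuronal lineage, was not called over the interval in which Eomes fell. Its level was 87.8 CPM at E12.5 and 88.4 CPM at P0 on average, and its difference was -0.03 on the log2 scale (SE 0.17, limma-voom adjusted p = 0.904), with a 95% interval of -0.41 to 0.36. With total counts only, Tbr1 was called higher at P0 by 0.50. Per Tbr1 footprint there were 0.708 and 0.667 of Eomes in the E12.5 pair, 0.636 and 0.606 in the E14 pair, 0.414 and 0.407 in the E15.5 pair, 0.358 and 0.298 in the E17 pair, and 0.0740 and 0.0639 in the P0 pair, lower in both libraries at every step.

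In the growth-restraining families the paralogues fell too, with fitted falls smaller than those of Gadd45g and Btg2, a difference that was not itself tested. Gadd45a fell by 1.39 on the log2 scale from E12.5 to P0 (SE 0.15, limma-voom adjusted p = 9.55e-05) and Gadd45b by 1.53 (SE 0.29, adjusted p = 0.00207), where Gadd45g fell by 3.64. Gadd45g gave 4.93 to 7.29 footprints per Gadd45a footprint up to E14 and 1.45 and 1.04 at P0. Btg1, Btg3, Tob1 and Tob2 fell by 0.84, 2.47, 1.39 and 0.59, against 3.30 for Btg2, and the calls of Btg1 and Tob2 were lost with total counts only and those of Tob2 and Gadd45b without P0 replicate 2. Btg2 gave 0.549 and 0.560 footprints per Btg1 footprint at E12.5 and 0.0997 and 0.107 at P0. Insm2 was near the limit of detection, with stage means at or under 0.72 CPM, and fell by 2.16 (SE 0.64, adjusted p = 0.0170), a call lost without P0 replicate 2 (-0.37).

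**Figure D3:**
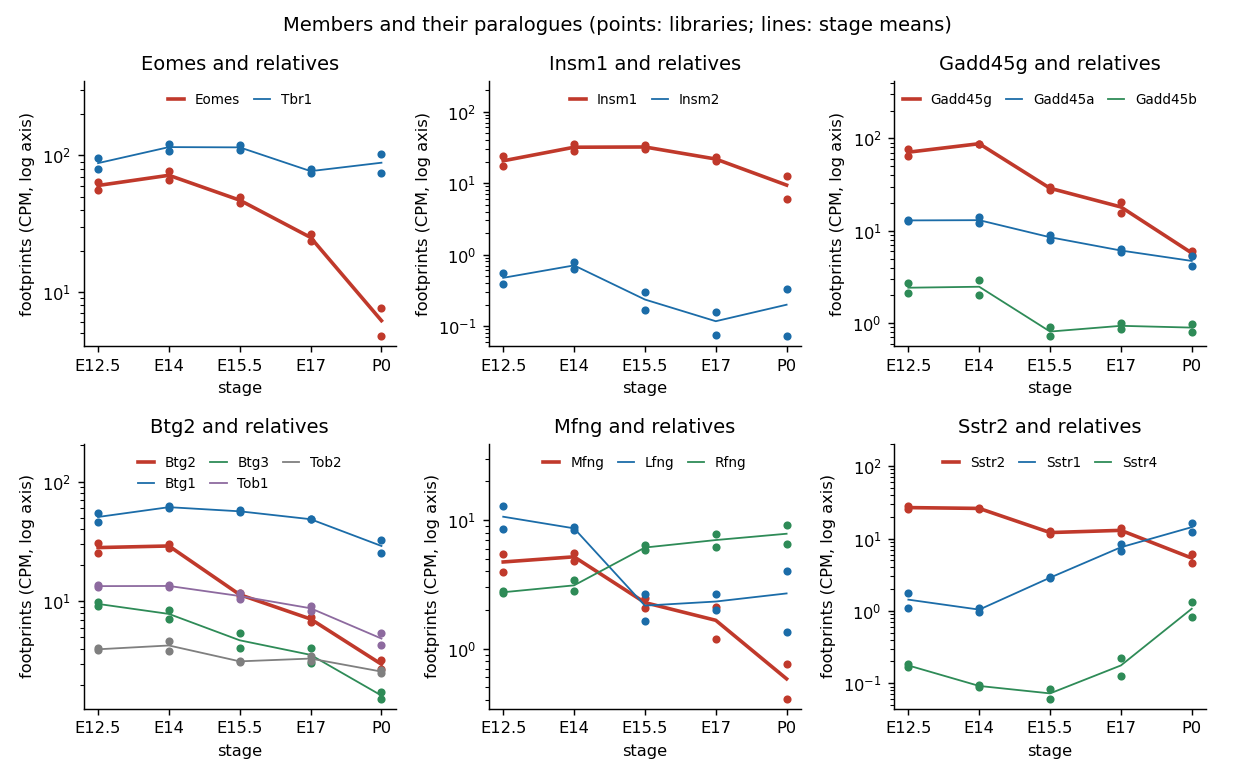
TMM-scaled CPM of each member (thick line) and its paralogues by stage on a log axis, with points for libraries and lines through stage means. CPM is not corrected for transcript length, so the courses and not the heights of different genes can be compared. Sstr1 rose from 1.43 to 14.4 CPM and Rfng from 2.75 to 7.84 CPM while Sstr2 and Mfng fell.

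Set against Pax6, the transcription factor of radial glia from which intermediate progenitors arise, the courses of the members separated. Pax6 itself fell from a mean of 202 CPM at E12.5 to 30.7 CPM at P0. The log2 ratio of Insm1 to Pax6 counts was -3.54 and -3.10 in the E12.5 pair, -2.31 and -2.58 in the E14 pair, -1.45 in both E15.5 libraries, -1.17 and -1.16 in the E17 pair, and -1.32 and -2.30 in the P0 pair, so that Insm1 gained on Pax6 through E17. That of Eomes was -1.84 and -1.66 in the E12.5 pair, -1.18 and -1.35 in the E14 pair, -0.91 and -0.87 in the E15.5 pair, -0.95 and -0.96 in the E17 pair, and -2.05 and -2.64 in the P0 pair. Both P0 libraries of Eomes lay below all other libraries, after a rise through E15.5 and a plateau to E17.

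Gadd45g and Btg2 stayed closer to Pax6 through the embryonic stages. Stage means of the log2 ratio lay between -1.59 and -0.97 for Gadd45g and between -2.94 and -2.56 for Btg2 from E12.5 to E17, and were -2.41 and -3.35 at P0. Sstr2 had its highest ratio at E17, with a mean of -1.91 against -2.92 to -2.72 before. Mfng lay between -5.43 and -4.91 up to E17, with a mean of -5.72 at P0 that rests on 24 footprints. From E12.5 to P0, the ratio to Pax6 changed by a median of -0.39 over the 6 genes, from -0.89 for Gadd45g to 1.51 for Insm1. With Sox2 as the reference the median was -1.66, and with the proliferation marker Mki67 it was 0.96. The sign thus depended on the reference gene, and the Mki67 value is uncertain, with 23 Mki67 footprints at P0 over both libraries.

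**Figure D4:**
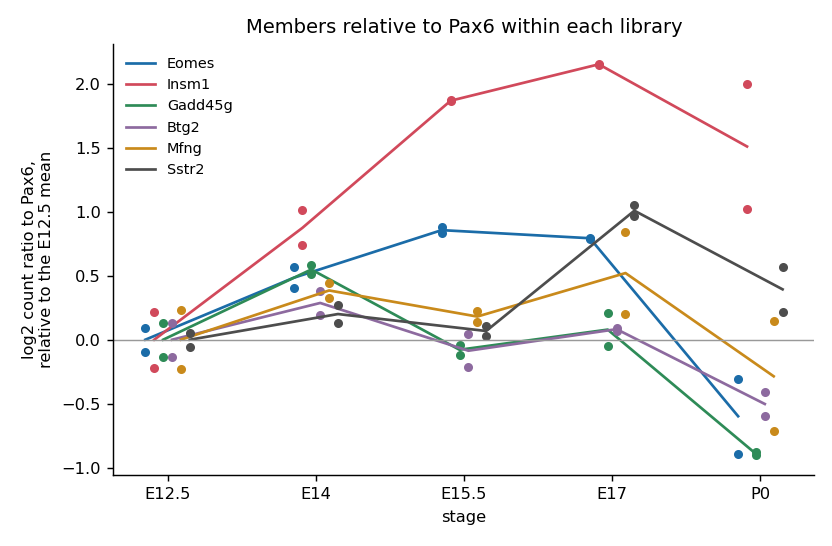
Log2 ratio of each gene's counts to those of Pax6 in the same library, set to 0 at the mean of E12.5, by stage, with points for libraries and lines through stage means. Insm1 rose through E17, and Eomes, Gadd45g, Btg2 and the mean of Mfng ended below 0 at P0.

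Of 15 further genes of neurogenic differentiation in the same pathway, 9 fell and 2 rose from E12.5 to P0, with a median of -1.58. Over the same span 32% of all genes tested were called lower and 30.1% higher. Nhlh1, a helix-loop-helix gene of newborn neurons, had the lowest fitted change, -7.91 on the log2 scale (SE 0.84). Its mean was 24.1 CPM at E12.5, 30.4 CPM at E14, 2.32 CPM at E17 and 0.459 CPM at P0, where the 2 libraries stood far apart, at 0.0477 and 0.870 CPM, so that the size of the fitted change is uncertain. Cux2, a homeobox gene of the subventricular zone and upper layers, had the largest rise, from 3.82 to 24.3 CPM (2.62 on the log2 scale, SE 0.17, limma-voom adjusted p = 5.51e-06). Elavl4, an RNA-binding protein of neurons and the most abundant of the list, fell by 0.56, close to the 0.51 by which total counts only moved the median gene. Between E14 and E15.5, 7 of the 15 fell and 2 rose, with a median of -0.44 against -1.13 for the 6 members. At that step 19.6% of all genes were called lower and 16.5% higher. With total counts only, 6 of the 15 fell and 4 rose at this step.

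The lists of neighbouring cell states frame the course of the 6 genes. Of 10 radial glia genes, 8 fell and 2 rose from E12.5 to P0, with a median of -2.22. Over all genes tested, 32% were called lower and 30.1% higher at this comparison. Prom1 fell by 4.64 on the log2 scale, and Slc1a3 and Fabp7 rose by 0.67 and 0.59. All 8 mitosis genes fell, with a median of -3.96, which was below the median of the 6 members. Of 10 neuronal genes 9 rose, among them the tubulin gene Tubb3 from 737 to 3141 CPM, and the exception Bcl11b differed by 0.18 (SE 0.21, limma-voom adjusted p = 0.486). Of 8 ganglionic eminence genes 6 rose, among them Lhx6 of migrating interneurons from 7.64 to 71.6 CPM. All 6 choroid plexus genes, all 6 genes of meningeal fibroblasts and all 5 endothelial genes fell, with medians of -4.83, -4.76 and -2.85. The part of these tissues in the change of the 6 members was not tested. Summed over each list, the 6 members made 193 to 229 CPM at E12.5 and 23.9 to 36.5 CPM at P0, and the mitosis genes made 700 to 718 CPM and 42.9 to 46.5 CPM.

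Btg2 and the Gadd45 genes also count among the genes induced by p53 and by acute stress. Of 10 other genes of that kind, 4 fell and 4 rose from E12.5 to P0, with a median of 0.03. Over all genes tested, 32% were called lower and 30.1% higher, so these counts lie near the general share. With total counts only, 3 of the 10 fell and 5 rose. Egr1 rose by 2.36 on the log2 scale, and Jun and Trp53inp1 fell by 1.53 and 2.06. Between E14 and E15.5, 4 of these 10 fell and 1 rose, with a median of -0.48. At that step 19.6% of all genes were called lower and 16.5% higher. Of the 6 Cajal-Retzius genes, early-born neurons of the outermost layer, 4 fell and 1 rose from E12.5 to P0, with summed levels of 51.9 to 54.3 CPM and 43.1 to 44.0 CPM. Of 5 microglia genes 2 fell, likewise near the share over all genes. The split depended on scaling, since with total counts only 3 Cajal-Retzius genes fell and 2 rose, and 0 microglia genes fell and 2 rose.

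**Figure D5:**
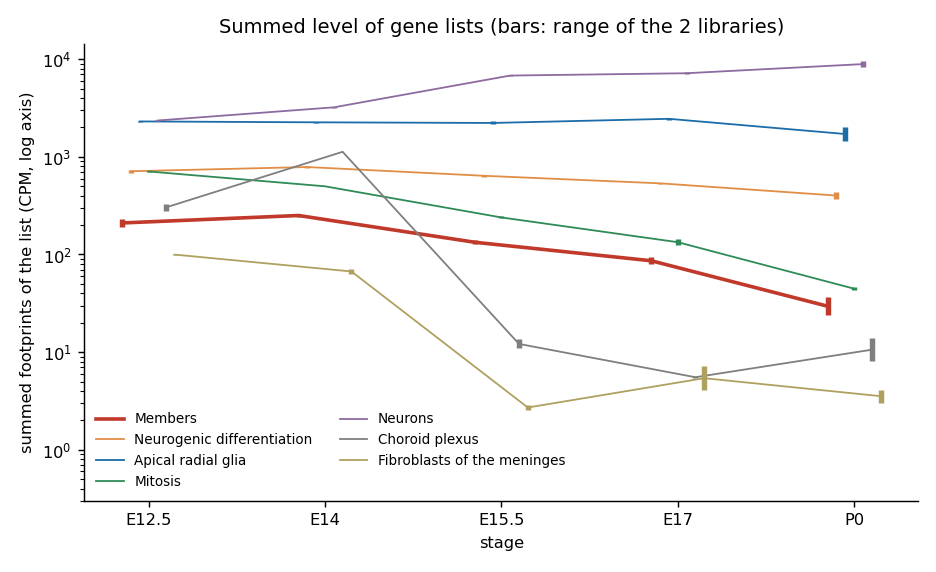
Summed CPM of the 6 members and of 6 gene lists by stage on a log axis, with bars for the range of the 2 libraries and lines through their geometric means. The members fell from 243 to 259 CPM at E14 to 23.9 to 36.5 CPM at P0, the choroid plexus and meningeal lists dropped between E14 and E15.5, and the neuronal list rose.

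Similarity was measured over the 10 libraries among 9210 genes that averaged 100 counts or more. The gene whose log2 CPM was most like the mean course of the 6 members was Neurog2, the proneural factor named above, with a Pearson r of 0.996. Its stage means were 94.0, 112, 43.0, 20.6 and 3.29 CPM. Next came Cdk4, a kinase of the cell cycle, Llgl1, a polarity gene, Ift43, a gene of intraflagellar transport, and Rcor2, a transcriptional corepressor, with r between 0.988 and 0.989. For Eomes the closest genes were Rcor2 (0.998) and Neurog2 (0.992), and for Insm1 they were Zswim4 (0.983) and Btg1 (0.970). For Gadd45g they were Rnd2 (0.995), a small GTPase of migrating neurons, and Nde1 (0.993). For Btg2 they were Lhx2 (0.997) and the histone gene Hist1h2br (0.996), whose counts may include reads of near-identical copies. For Mfng they were Llgl1 and Vangl2 (0.990 each), and for Sstr2 they were Tmem98 (0.995) and Mapkapk2 (0.992). The points share libraries and stages, so that any gene with a similar trend across stages scores high.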

How the data were processed

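Ribo-seq libraries from neocortex of CD-1 mice at 5 stages were analysed. The deposited table holds footprint counts per gene as whole numbers, not scaled for depth. Per the study's methods, the authors trimmed adapters with cutadapt, collapsed duplicate reads, removed contaminant RNA with Bowtie 2 and aligned with STAR to GENCODE annotation, with multiply matching reads kept. The submitters' notes give STAR 2.7.0. The methods give another STAR version, and name DeepShape-prime for isoform abundances and tximport for totals per gene. If these tools produced the deposited counts, and how multiply matching reads were divided, is not given in the sources used here, so genes with close copies are uncertain. Matched RNA-seq was not used here.

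Of 22373 identifiers, 22274 matched a symbol. Genes that reached 32 footprints in some stage were kept (13484), and the analysis ran in R 4.3.3. The test was limma-voom (limma 3.58.1) with TMM factors from edgeR 4.0.16, 1 coefficient per stage over 10 libraries, two-sided, Benjamini-Hochberg adjusted, called at adjusted p under 0.05 and a fold of 1.25. Tests were also run on simulated counts with 1 spread per gene for all stages. That setting leaves out the wider spread at P0, so nothing about the P0 calls is drawn from it. Alternatives were edgeR, DESeq2 1.42.0, other scalings, filters and weights, a replicate block, fits of 2 stages, and leaving out each library. Named genes were all members and their paralogues, the extremes and the most abundant gene of each list, and the genes most correlated with the members. Similarity used Pearson's r of log2 CPM. Ratios in log2 used counts plus 0.5. Promoters were searched for exact words. Members and lists were chosen with earlier results of these data known.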

Additional observations from a re-analysis of the deposited data

How the results depend on the processing

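Of 570 alternative values for single genes, 520 kept their direction and their side of the threshold, 37 lost a call, 4 gained it and 9 turned sign. None of the 20 called changes turned sign. Uncalled values near 0 that turned sign were Btg2 between E12.5 and E14 (leave-one-out -0.084 to 0.19), Mfng at that step (-0.093 to 0.37), Sstr2 at that step (0.020 with total counts only, leave-one-out -0.093 to 0.020), Insm1 between E14 and E15.5 (-0.0046 with DESeq2, leave-one-out -0.16 to 0.19) and Sstr2 between E15.5 and E17 (-0.030 to 0.22). The number of members called with 1 library left out was 0 throughout between E12.5 and E14, 3 to 5 between E14 and E15.5, 0 to 4 between E15.5 and E17, 4 to 6 between E17 and P0 and 5 to 6 between E12.5 and P0. Between E17 and P0 it was 3 with sample quality weights and 0 with only the 2 stages compared, where 6 members had an unadjusted p under 0.05. The F test passed all 6 members in every alternative run. The median change of the members against a reference gene was -1.66 with Sox2 and 0.96 with Mki67 in place of Pax6 (-0.39). Mki67 had 23 footprints at P0 over both libraries, so its value is uncertain. The causes of these differences between runs were not tested.

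Replicate numbers gave no consistent pairing of the libraries, since deviations from stage means correlated above 0.1 in 2 of 10 pairs of stages (range -0.68 to 0.27). The lowest value was that of E12.5 with P0, whose same-numbered libraries tended to deviate in opposite directions over 9215 genes. These correlations do not show that libraries of different stages varied independently. With a replicate block, 2 members were called between E15.5 and E17 in place of 3, Gadd45g being lost (adjusted p = 0.0547), and the other member counts did not change. Over all genes, calls between E12.5 and E14 were 86 in the reported fit, 4 with the block, 11 with only the 2 stages compared, 655 with sample quality weights and 0 to 1062 with 1 library left out, so the share of genes given beside the members is itself uncertain at this step. Between E15.5 and E17 these counts were 1219, 819, 3267, 3717 and 0 to 2863, and between E17 and P0 they were 2767, 2124, 0 (2962 at an unadjusted p under 0.05), 698 and 552 to 4419. Depth limits Mfng most, with 7 and 17 footprints at P0.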
